A study of Mus musculus with 54 samples.

Results

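The Hox genes encode homeodomain transcription factors and lie in 4 clusters in the mouse genome, *Hoxa* on chromosome 6, *Hoxb* on chromosome 11, *Hoxc* on chromosome 15 and *Hoxd* on chromosome 2. The members described here were all 39 gene symbols of the form Hoxa to Hoxd followed by a number, out of 23284 symbols listed in each of the count tables. They comprised 11 *Hoxa*, 10 *Hoxb*, 9 *Hoxc* and 9 *Hoxd* genes, and all 39 were listed in both tables.

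Hox genes are best known for setting position along the body axis in the embryo, where their order along a cluster follows the order in which they are expressed. Polycomb proteins keep silent Hox genes off and Trithorax proteins keep active ones on, while Hox proteins bind DNA together with cofactors that are homeodomain proteins themselves. CTCF is a zinc finger protein that binds a long DNA motif and sets the ends of chromatin loops, and several of its sites lie inside the Hox clusters. BORIS, encoded by *Ctcfl*, is a paralogue of CTCF that is made in male germ cells and can bind the same motif.

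The study compared C57BL/6 males aged 3 months of 4 genotypes, each germ cell preparation being pooled from 4 mice. These were wild type (WT), *Ctcf* +/- (CTCF HET), *Boris* -/- with both *Ctcf* alleles intact (BORIS KO), and *Ctcf* +/- *Boris* -/- (CM, the compound mutant, which the sample labels call DKO). CM mice came from CTCF HET females crossed with BORIS KO males. All mutant alleles were present in every cell of the animal, so the somatic cells of the testis carried them too. RNA was sequenced from enriched germ cells of whole testis (3 libraries per genotype, rRNA-depleted), and as poly(A) RNA from purified round spermatids (3 per genotype) and spermatocytes (3 per genotype, 2 for WT). CTCF, BORIS, RNA polymerase II (Pol2) and H3K4me3, a histone mark of active promoters, were mapped in whole testis by ChIP-seq, with 1 deposited peak list per antibody and genotype.

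The whole testis libraries held 10437683 to 42055813 counts. Those of purified cells were deeper, with 47740650 to 98545423 for round spermatids and 53337530 to 88946702 for spermatocytes. *Ctcf* in whole testis was at 40.9 to 45.1 CPM (counts relative to the library size after TMM scaling of the libraries of a preparation) in WT, 22.9 to 30.3 in CTCF HET and 24.3 to 26.8 in CM. In the purified cells it was not lower in every library so labelled: it was 29.6 to 49.7 CPM in WT and 39.8 to 177 in the round spermatid libraries labelled CM, and 32.0 and 33.8 CPM in WT spermatocytes against 31.3 to 50.5 in those labelled CTCF HET and 32.4 to 83.6 in those labelled CM. In BORIS KO whole testis *Ctcf* was at 30.7 to 38.8 CPM. *Ctcfl* was at 0.509 to 0.711 CPM in WT whole testis and 0.165 to 0.401 in BORIS KO. In round spermatids *Ctcfl* was at 2.90 to 5.11 CPM in WT and 2.12 to 2.46 in BORIS KO. In spermatocytes it was near 0 in both, at 0.0636 and 0.0759 CPM in WT and 0 to 0.0820 in BORIS KO. Counts per gene do not say which exons they come from. The libraries labelled CM and CTCF HET from spermatocytes had counts for 14145 to 16666 and 12018 to 13406 genes, against 17631 and 17683 in WT, and those labelled CM from round spermatids for 14932 to 16670 against 17504 to 17985. The spermatocyte markers summed to 6686 to 9001 CPM in the spermatocyte libraries of all genotypes and the spermatid markers to 43.9 to 132 CPM, against 606.5 to 1856 CPM of spermatid markers in the round spermatid libraries. The round spermatid libraries also held 3695 to 5252 CPM of the spermatocyte markers. The labelled whole testis held both, with 4968 to 28440 CPM of spermatid and 1081 to 5219 CPM of spermatocyte markers.

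CTCF bound all 4 Hox clusters in WT testis. With 10 kb added on each side, the clusters held 38 of the 34625 WT CTCF peaks, or 6.64 peaks per 100 kb against 1.3 over the genome. There were 8 over *Hoxa*, 17 over *Hoxb*, 4 over *Hoxc* and 9 over *Hoxd*. Peak height, the deposited signal at the summit whose normalization is not given in the sources used here, ranged over the clusters from 110 to 4002.

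The highest CTCF peaks stood at or near genes from the middle of the clusters. They were 4002 high 218 bases upstream of *Hoxc10*, 3979 high 42 bases inside *Hoxa7*, 3896 high in the 5′ part of *Hoxb5*, 3836 high 63 bases upstream of *Hoxa5*, 3790 high 3026 bases upstream of *Hoxc8*, and 3412 high in an exon of *Hoxa10*. In *Hoxd* the highest was 1836, inside the *Hoxd3* gene. Only 4 of the 7652 WT BORIS peaks lay over the clusters, at *Hoxa5* (height 89), *Hoxa7* (47), *Hoxc10* (86) and inside *Gm53* upstream of *Hoxb9* (583), and each lay on a WT CTCF peak. Among WT CTCF peaks, 10.5% (4 of 38) over the clusters and 17.5% over the genome overlapped a BORIS peak (Wilson 95% interval 4.17 to 24.1% for the clusters, which covers counting error only).

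The sequences under 6 of these peaks are shown because they carry the sites that the rest of the text turns on. These are the highest *Hoxa* sites, the site that BORIS shares in *Hoxb*, and the *Hoxd* sites that were lowest or absent in CM. Each is read 5′ to 3′ on the strand given, from mm9 (NCBI build 37), and capitals mark the 12 letters that match CCANNAGNNGGC, a core of the CTCF motif with 8 fixed letters, exactly or with 1 mismatch.
Hoxa5 promoter, chr6:52154644-52154683, minus strand, 1 mismatch: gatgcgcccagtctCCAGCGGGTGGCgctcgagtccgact
Hoxa7 start, chr6:52171799-52171828, minus strand, exact: aagaaaattCCAGGAGATGGCagtgtggct
Hoxa10 exon, chr6:52190531-52190560, minus strand, exact: tcgcagccgCCACGAGATGGCgcactcccg
Gm53, upstream of Hoxb9, with BORIS, chr11:96123053-96123092, minus strand, 1 mismatch: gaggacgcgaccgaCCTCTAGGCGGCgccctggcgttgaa
Inside Hoxd3, chr2:74553964-74554003, plus strand, exact: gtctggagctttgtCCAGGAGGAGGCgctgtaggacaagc
Upstream of Hoxd12, absent in CM, chr2:74511221-74511260, minus strand, exact: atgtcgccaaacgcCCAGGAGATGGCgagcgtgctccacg

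Searched on both strands within 100 bases of the summit, these letters were found exactly at 13.2% (5 of 38) of the WT CTCF peaks over the clusters and at 39.1% of all WT CTCF peaks. With up to 1 mismatch they were found at 50% (19 of 38, 34.8 to 65.2%) and at 75.4%. A match is a description of the sequence, and no match says only that these letters were not in the window.

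In CM testis 21 CTCF peaks lay over the clusters, and 19 of the 38 WT peaks had a CM peak at the same place. That is 50% (34.8 to 65.2%), against 56.1% of all WT CTCF peaks. By cluster it was 5 of 8 for *Hoxa*, 8 of 17 for *Hoxb*, 3 of 4 for *Hoxc* and 3 of 9 for *Hoxd*, and these intervals overlap. The WT peaks found again were 152 to 4002 high (median 2087), and those not found were 110 to 1366 high (median 171).

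Among peaks of like height the clusters were within counting error of the genome. All 13 in the top quartile of heights were found again (100.0%, 77.2 to 100.0%), against 95.2% of all peaks in that quartile. In the 3 lower quartiles the share was 9.09% (1 of 11), 25% (2 of 8) and 50% (3 of 6), against 11.9%, 41.1% and 76.3%, and each of these lay inside the interval of the clusters' share. The highest peak not found in CM was the 1366 peak 1774 bases upstream of *Hoxd12*. The CM list held 2 peaks with no WT peak, 251 high downstream of *Hoxa13* and 102 high beyond *Hoxd13*.

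At every top-quartile site the deposited height was lower in CM. It went from 3979 to 748 at *Hoxa7*, from 3836 to 581 at *Hoxa5*, from 4002 to 550 at *Hoxc10* and from 3896 to 358 at *Hoxb5*. The median ratio of CM to WT height was 0.113 over the 13 Hox sites and 0.182 over all kept peaks of the quartile, 90% of which lay between 0.0751 and 0.379. The lowest ratio, 0.0621, was that of the site inside *Hoxd3*, where the height went from 1836 to 114. With 1 list per genotype and an unstated normalization, these ratios have no replicate error.

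**Figure D1:**
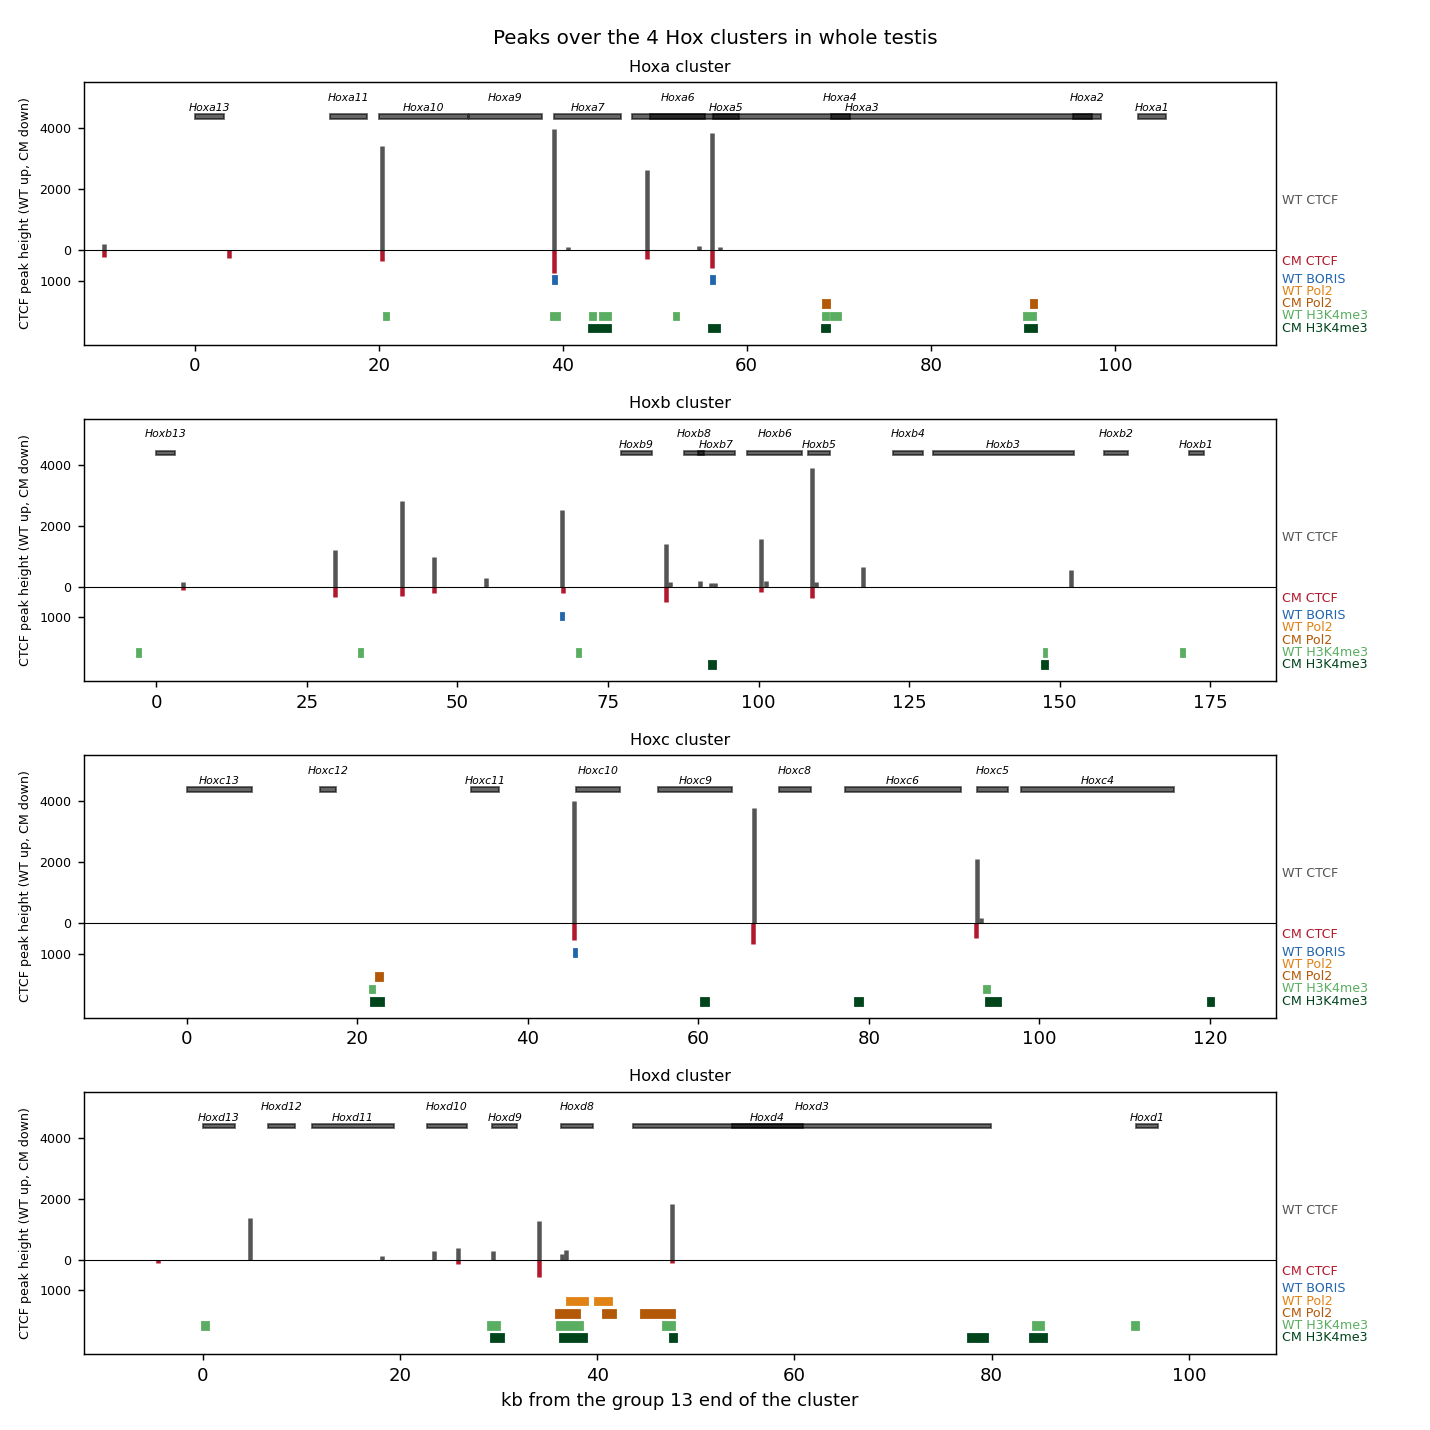
Peaks in whole testis along each Hox cluster, drawn from the group 13 end in kb, with gene bodies as bars at the top. The vertical axis gives the height of CTCF peaks, WT above 0 and CM below 0, and the rows under it mark where BORIS, Pol2 and H3K4me3 peaks lie, widened where needed to be seen, with no height scale. The tall WT bars at Hoxa7, Hoxa5, Hoxb5 and Hoxc10 (3836 to 4002) have CM bars of 358 to 748, and the WT Pol2 peaks sit only at and beside Hoxd8.

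Pol2 was almost absent from the Hox clusters in WT. The 2 WT Pol2 peaks were both in *Hoxd*, with a score of 143 over the *Hoxd8* gene and 138 just beyond it. A Pol2 peak lay within 1 kb of a start site for 1 of 39 Hox genes (2.56%, 0.454 to 13.2%), *Hoxd8*, against 40.0% of 20270 protein-coding genes. H3K4me3 lay at the start of 10 of 39 Hox genes (25.6%, 14.6 to 41.1%) against 53.3% of coding genes. The highest H3K4me3 score at a Hox start was also at *Hoxd8* (437), followed by *Hoxa4* (148) and *Hoxa7* (134).

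CM testis had 6 Pol2 peaks over the clusters. Within 1 kb of a start site, Pol2 lay at 3 of 39 Hox genes in CM (7.69%), against 47.6% of coding genes. The whole Pol2 list held 25192 peaks in WT and 28407 in CM. The score over *Hoxd8* was 268 and that beside it 120, and peaks absent from the WT list stood inside *Hoxd3* (164), over *Hoxa3* (55.9), 439 bases upstream of *Hoxa4* (52.7) and beside *Hoxc12* (52.6). The lowest score in the CM list was 50, so the last 3 stood just above what the list holds. The peak inside *Hoxd3*, chr2:74550793-74554281, covers the CTCF site whose height went from 1836 to 114. It also covers the 5′ end, at chr2:74554187, of *1700109F18Rik*, a gene on the other strand described below. Which gene this Pol2 peak belongs to was not tested. The H3K4me3 peak at that 5′ end scored 108 in WT and 52.8 in CM. H3K4me3 was listed in CM but not in WT at the starts of *Hoxa5* (85.7), *Hoxc6* (55.2) and *Hoxd3* (62.1). It was listed in WT but not in CM at *Hoxa6* (64.6), *Hoxa10* (68.0), *Hoxb1* (70.7), *Hoxc5* (101), *Hoxd1* (109) and *Hoxd13* (91.9), but a CM peak of 171 lay just beyond the 1 kb window at *Hoxc5*. At *Hoxd9*, it was listed in both (112 and 93.7). In CM, H3K4me3 lay at the start of 7 of 39 Hox genes (17.9%), against 58.3% of coding genes. The whole H3K4me3 list held 34347 peaks in WT and 20432 in CM.

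A few genes gave nearly all Hox RNA in male germ cells. In WT spermatocytes *Hoxa4* took 82.9 and 83.1% of all Hox counts, and in WT round spermatids 64.3 to 81.5%. Together *Hoxa4*, *Hoxd8* and *Hoxa3* took 98.4 and 98.6% of Hox counts in spermatocytes, 98.1 to 98.9% in round spermatids and 70.8 to 77.2% in whole testis. WT whole testis libraries had a count for 34 to 38 members, but at least 10 counts for 10 to 17. Compared per kb of exon, *Hoxa4* was at 173 ± 64.2 CPM per kb (SD, n = 3) in WT round spermatids, followed by *Hoxd8* (26.0 ± 2.27) and *Hoxa3* (1.11 ± 0.205). In WT spermatocytes these were at 161, 8.55 and 4.53 CPM per kb (n = 2), and no other member exceeded 0.293. In WT whole testis *Hoxa4* (17.6 ± 5.70) and *Hoxd8* (13.8 ± 2.73) did not differ beyond their spread, and *Hoxb3* came next (2.84 ± 0.361).

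**Figure D2:**
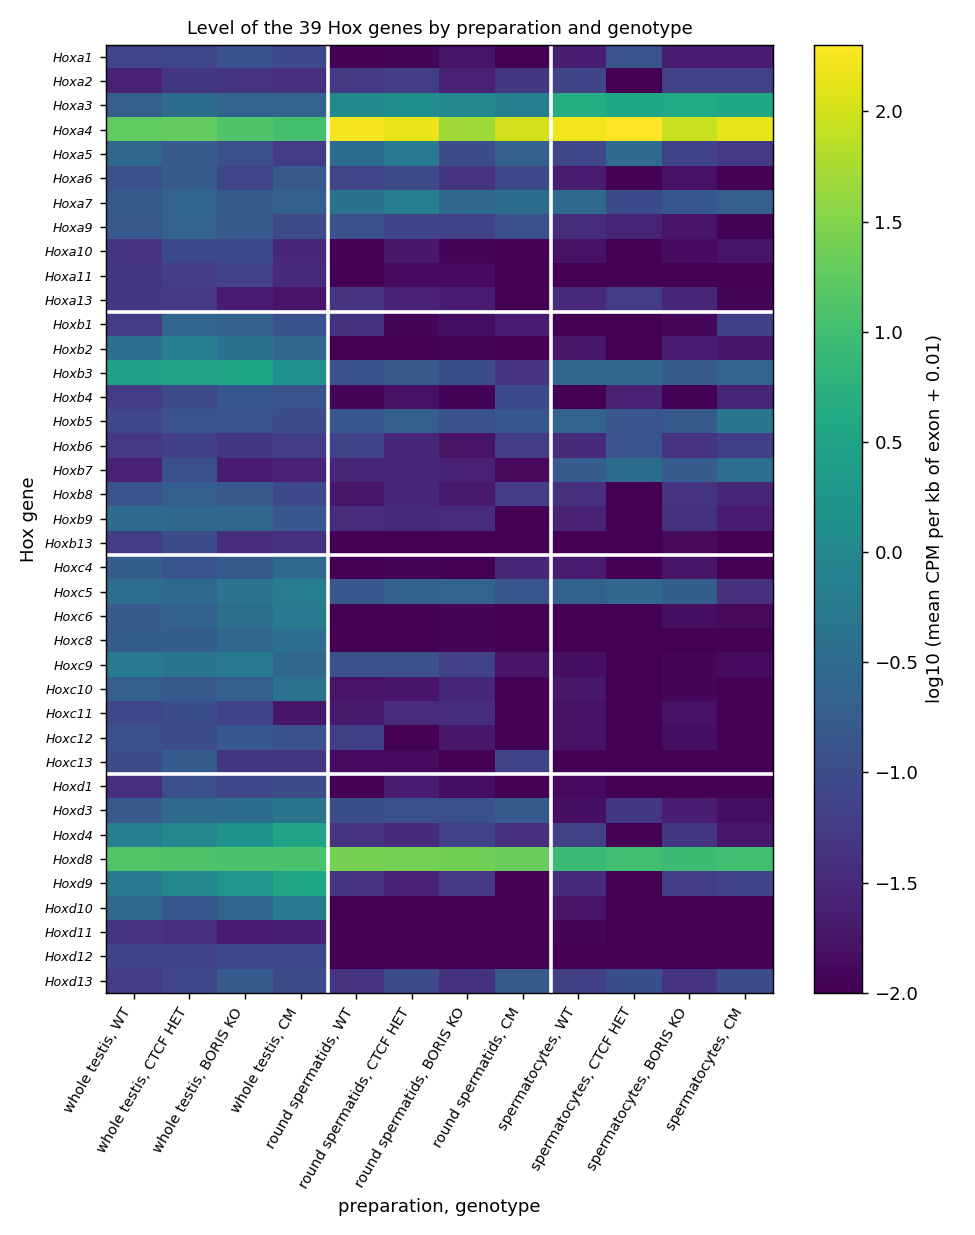
Mean level of the 39 Hox genes (vertical axis, in cluster order) in each preparation and genotype (horizontal axis), as log10 of CPM per kb of exon plus 0.01, with the colour bar on the right. Hoxa4 and Hoxd8 stand out in every column, Hoxa3 in the purified cells, and most other members are near the lower end there.

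Spermatocytes and round spermatids differed in *Hoxd8*, *Hoxa3* and a few of the minor Hox genes. Between the WT libraries of these preparations, 6 of 14 tested members were called at adjusted p < 0.05 (edgeR's quasi-likelihood test with Benjamini-Hochberg adjustment over all genes), beside 70.0% of all genes tested (35.8% higher and 34.2% lower in round spermatids). *Hoxa4* was at 253 and 260 CPM in spermatocytes and at 158, 337 and 333 CPM in round spermatids. The spermatocyte values lie inside the round spermatid range (log2 difference 0.07 ± 0.31 SE, adjusted p = 0.846).

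*Hoxd8* was at 23.2 and 23.7 CPM in spermatocytes and at 64.4 to 76.2 CPM in round spermatids, with no overlap (log2 1.57 ± 0.12, adjusted p = 1.65e-05). *Hoxa3* went the other way, from 24.1 and 24.7 CPM to 4.69 to 6.64 CPM (-2.07 ± 0.18, adjusted p = 3.63e-05), and so did *Hoxb7*, from 0.658 and 0.649 CPM to 0.0214 to 0.117 (-2.99 ± 0.65, adjusted p = 0.0047). *Hoxa9* was at 0.0885 and 0.102 CPM against 0.276 to 0.469 (1.92 ± 0.63, adjusted p = 0.0278). *Hoxd3* and *Hoxc9* were also called higher in round spermatids (adjusted p = 0.00379 and 0.0198), but the spermatocyte libraries held 1 to 3 counts of *Hoxd3* and 1 each of *Hoxc9*, so no fold is given. The gene that shares the *Hoxd8* stretch on the other strand differed less, 45.1 and 48.7 CPM against 34.7 to 47.6.

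*Hoxa4* was lower in the purified germ cells of BORIS KO mice, and was not called in their whole testis. In round spermatids it was at 158, 337 and 333 CPM in WT and at 71.3, 73.8 and 90.5 CPM in BORIS KO. All BORIS KO libraries lay below all WT libraries, and the first WT library lay well below the other WT libraries. The fall was 3.61-fold (log2 -1.85 ± 0.27, adjusted p = 0.000412, edgeR's quasi-likelihood test), and it held when any single library was left out. In spermatocytes *Hoxa4* was at 253 and 260 CPM in WT and at 131, 139 and 148 CPM in BORIS KO. The groups did not overlap, and the fall was 1.85-fold (-0.88 ± 0.06, adjusted p = 2.01e-06). In whole testis *Hoxa4* was at 17.7, 31.3 and 34.9 CPM in WT and at 13.2, 24.1 and 24.4 CPM in BORIS KO. These groups overlap (-0.44 ± 0.34, adjusted p = 0.523, and 0.0716 with the replicate block).

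The test of the difference between these effects did not pass the threshold. The effect in round spermatids minus that in spermatocytes was -1.03 ± 0.35 on the log2 scale (adjusted p = 0.0682 by edgeR's quasi-likelihood interaction test, chosen after seeing the data). That test called 0 of 15 members for BORIS KO, with 2 at an unadjusted p under 0.05, beside 13.4% of all genes. For CTCF HET it called 0 of 15 members with 2 at an unadjusted p under 0.05, beside 33.6% of genes, and for CM 0 of 21 with 1, beside 3.51%. DESeq2 was not run for it.

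In the purified cells of the other mutants edgeR did not call *Hoxa4*, but in CM round spermatids it called only 0.00654% of all genes. The *Hoxa4* values of CM whole testis are given below. In round spermatids *Hoxa4* was at 252, 218 and 233 CPM in CTCF HET, inside the WT range, and at 145, 140 and 195 CPM in CM, partly below it (log2 -0.75 ± 0.32, adjusted p = 0.237). In spermatocytes CTCF HET libraries were at 384, 309 and 267 CPM, all above WT (0.32 ± 0.16, adjusted p = 0.227 by edgeR, 0.0459 by DESeq2), and CM libraries at 178, 260 and 216 CPM (-0.21 ± 0.16, adjusted p = 0.435). All libraries labelled CM were above all BORIS KO libraries of the same cell type in both preparations. That difference was not tested, and all these comparisons share the WT libraries.

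**Figure D3:**
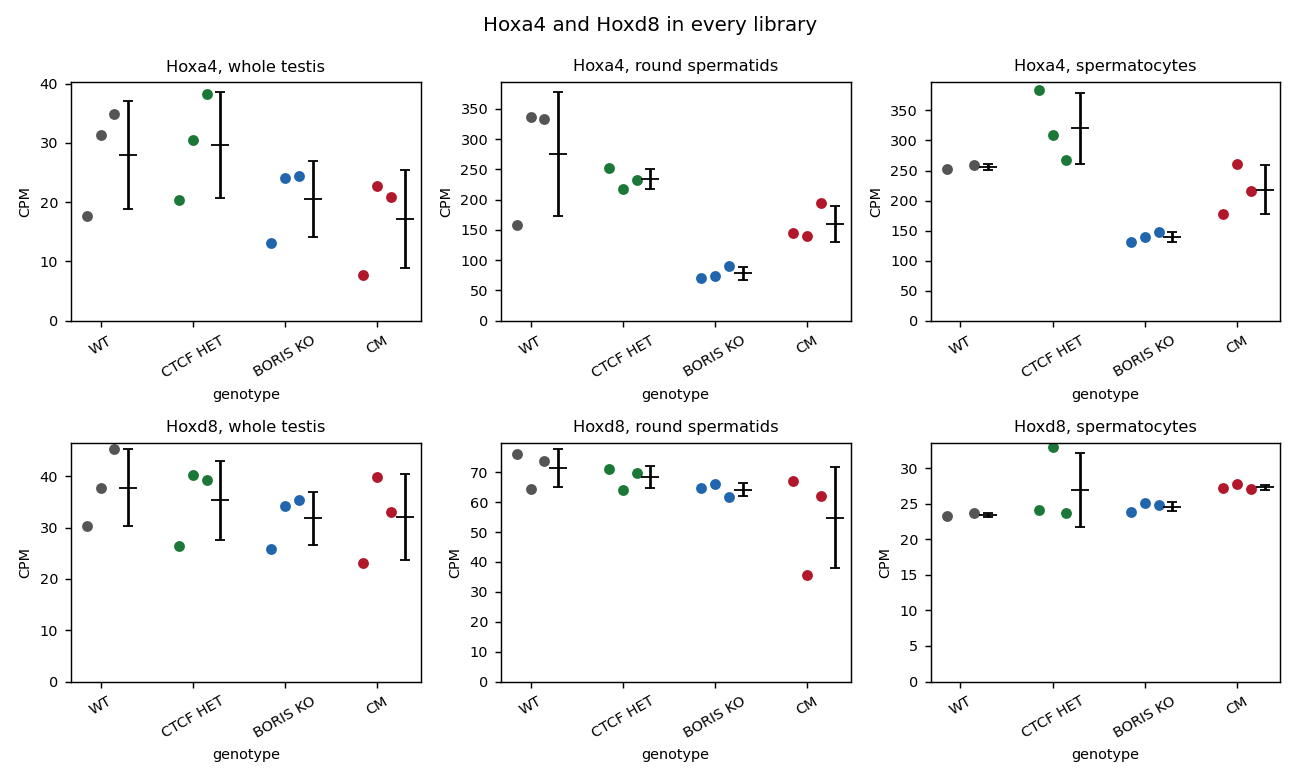
CPM of Hoxa4 (top) and Hoxd8 (bottom) in every library of whole testis, round spermatids and spermatocytes, by genotype; points are libraries and bars mean ± SD over the 2 or 3 libraries. Hoxa4 in BORIS KO lies at 71.3 to 90.5 CPM in round spermatids and 131 to 148 in spermatocytes, below every other genotype there, while Hoxd8 shows no such step.

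The other members gave few calls in BORIS KO. In round spermatids 2 of 11 tested members were called, both lower, beside 55.8% of all genes (26.8% higher, 29.0% lower). The second was *Hoxa5*, at 0.161, 0.941 and 0.723 CPM in WT and 0.128, 0.127 and 0.267 in BORIS KO. The groups overlap, and the call (-1.80 ± 0.67, adjusted p = 0.0463) was lost when any library but the first WT one was left out. In spermatocytes 3 of 12 were called, all lower, beside 57.2% of genes (29.1% higher, 28.1% lower). *Hoxa7* was at 0.910 and 0.649 CPM in WT and 0.281, 0.451 and 0.420 in BORIS KO (-1.01 ± 0.27, adjusted p = 0.00732). *Hoxb3* was at 0.771 and 0.636 against 0.428, 0.451 and 0.434 (-0.68 ± 0.23, adjusted p = 0.0251), a call that DESeq2 did not make (adjusted p = 0.115). Both had groups that did not overlap. In both preparations the share of members called was below that of all genes.

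*Hoxd8*, next in level, was at 64.4 to 76.2 CPM in WT and 61.9 to 66.1 in BORIS KO round spermatids (-0.18 ± 0.10, adjusted p = 0.139) and at 23.9 to 25.1 CPM in BORIS KO spermatocytes (0.07 ± 0.07, adjusted p = 0.422). *Hoxa3* was at 5.30 to 5.69 CPM in BORIS KO round spermatids (-0.14 ± 0.18) and at 21.7 to 23.1 CPM in BORIS KO spermatocytes (-0.12 ± 0.07), neither called. In the round spermatid libraries 4 of 8 spermatocyte markers were lower and 1 higher in BORIS KO, and their sum was 4095 to 4436 CPM against 4582 to 5187 in WT. All 3 tested Sertoli markers were higher there (sum of the list 11.5 to 15.2 CPM against 5.28 to 7.67). In the spermatocyte libraries 5 of 8 spermatocyte markers were lower, with a sum of 6860 to 7336 against 7910 and 8451 CPM. Of 9 spermatid markers 3 were higher and 0 lower there, and of 8 spermatogonia markers 2 were higher and 3 lower. The part of these in the *Hoxa4* result was not tested, and in such pools fewer cells of a type and less RNA per cell cannot be told apart.

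CTCF HET and CM gave no Hox call in the purified cells by edgeR. In round spermatids CTCF HET had 0 of 11 members called (0 at an unadjusted p under 0.05, 0 by DESeq2) beside 22.3% of genes, and CM 0 of 11 (1 at an unadjusted p under 0.05, 0 by DESeq2) beside 0.00654%. In spermatocytes CTCF HET had 0 of 9 (0 at an unadjusted p under 0.05, 1 by DESeq2) beside 15.5% by edgeR and 27.4% by DESeq2, and CM 0 of 12 (2 at an unadjusted p under 0.05, 0 by DESeq2) beside 0.604%.

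In whole testis of CM mice, some but not all genes of the *Hoxd* cluster were higher. *Hoxd4*, *Hoxd9* and *Hoxd3* rose by 3.32 to 5.81-fold, while *Hoxb3* fell 1.88-fold. With *Hoxc6*, 5 of 14 tested members were called, beside 25.2% of all genes (16.4% higher, 8.80% lower). Such shares were not tested against each other, here or below. They are not read as a result about the Hox genes as a set. The filter on low counts passed 14 members here, and 12 in each single mutant against WT. *Hoxc6* passed it through CM alone (3 of 3 CM and 0 of 3 WT libraries above its limit), so it had to be higher in CM and is given as a description. *Hoxc4* had 1 WT library above the limit, and *Hoxd3* 2.

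*Hoxd9* was at 1.64, 1.52 and 0.800 CPM in WT and at 11.3, 4.39 and 8.18 CPM in CM, with no overlap (log2 2.54 ± 0.44, adjusted p = 0.0154, edgeR's quasi-likelihood test). *Hoxd4* was at 1.75, 1.99 and 1.42 CPM in WT and at 10.4, 5.37 and 9.44 CPM in CM, again with no overlap (2.26 ± 0.35, adjusted p = 0.0151). *Hoxd3* was at 0.537, 0.795 and 0.978 CPM in WT and at 3.94, 1.34 and 2.05 CPM in CM (1.73 ± 0.49, adjusted p = 0.0334). The groups did not overlap, but the first CM library carried much of it (1.21 without that library, adjusted p = 0.0815). Exons of *Hoxd3* and *Hoxd4* overlap in the annotation, so reads in the shared part cannot be assigned to either.

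*Hoxc6* was at 0.311, 0.530 and 0.356 CPM in WT (4 to 11 counts) and at 1.36, 1.22 and 1.89 CPM in CM, with no overlap. *Hoxb3*, the best expressed *Hoxb* gene, was at 6.87, 7.09 and 8.62 CPM in WT and at 4.82, 4.03 and 3.15 CPM in CM (-0.91 ± 0.29, adjusted p = 0.0488). Its groups did not overlap either. *Hoxd8*, between *Hoxd9* and *Hoxd3* on the chromosome, was at 30.3, 37.7 and 45.3 CPM in WT and 23.2, 39.8 and 33.1 in CM, overlapping (-0.25 ± 0.28, adjusted p = 0.516). *Hoxd10*, on the far side of *Hoxd9*, was at 0.962, 0.464 and 0.889 CPM against 2.03, 0.488 and 2.20 (0.99 ± 0.56, adjusted p = 0.207).

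The remaining members with a median of at least 10 counts in some group gave no call in CM whole testis. *Hoxc5* was at 0.848, 0.928 and 1.16 CPM in WT and 1.72, 2.20 and 1.81 in CM, with no overlap, but missed the threshold (0.97 ± 0.34, adjusted p = 0.0643). *Hoxb9* was at 0.650, 0.729 and 0.978 CPM against 0.653, 0.244 and 0.157 (-0.94 ± 0.53, adjusted p = 0.206), *Hoxa3* at 0.764 to 1.25 against 1.04 to 1.31, and *Hoxb2* ranged from 0.283 to 2.58 CPM within WT alone. *Hoxc4* (0.0848 to 0.889 CPM in WT, 0.671 to 0.866 in CM) overlapped too. *Hoxc8*, *Hoxc10*, *Hoxb4* and *Hoxd13* did not pass the filter. *Hoxc8* was at 0.265 to 0.533 CPM in WT and 0.427 to 1.34 in CM, and in purified cells it had at most 1 count.

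Others were seen mainly in purified cells. *Hoxb5*, under one of the highest CTCF peaks, was at 0.598 and 0.670 CPM in WT spermatocytes, 0.392 to 0.481 in BORIS KO (-0.52 ± 0.24, adjusted p = 0.0832) and 0.961 to 1.92 in CM (1.14 ± 0.47, adjusted p = 0.165). *Hoxb7* was at 0.649 and 0.658 CPM in WT and 1.08 to 1.44 in CM spermatocytes, above WT but not called (1.04 ± 0.41, adjusted p = 0.15). *Hoxa7* was at 0.727 to 1.74 CPM in WT and 0.660 to 0.783 in BORIS KO round spermatids (-0.66 ± 0.37, adjusted p = 0.159). *Hoxa2* was at 0.153 and 0.164 CPM in WT spermatocytes, and *Hoxb6* at 0.0391 to 0.214 CPM in WT round spermatids. *Hoxd13* was at 0.115 and 0.164 CPM in WT spermatocytes and at 0 to 0.137 CPM in WT round spermatids, where the libraries labelled CM were at 0.219 to 0.503. In that comparison it passed the filter through CM alone (3 of 3 CM and 0 of 3 WT libraries above its limit). It therefore had to be higher in CM and is given as a description, and edgeR did not call it. It did not pass the filter in whole testis. Exons of *Hoxb7* and *Hoxb8*, and of *Hoxa2* and *Hoxa3*, overlap in the annotation. The members not named here had medians under 10 counts in every group.

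Same-numbered whole testis libraries of different genotypes deviated together, and with the replicate number as a block 7 of 14 members were called, beside 43.0% of all genes under that fit. The added ones were *Hoxa4* and *Hoxc9*. *Hoxa4* was at 17.7, 31.3 and 34.9 CPM in WT and 7.67, 22.8 and 20.9 in CM, overlapping as groups but lower within each number (-0.73 ± 0.43, adjusted p = 0.232 without the block and 0.0144 with it). *Hoxc9* was at 1.90, 1.06 and 1.51 CPM against 0.605, 0.488 and 0.944 (-1.20 ± 0.41, adjusted p = 0.0582 without and 0.0335 with the block). Leaving out 1 library of 3 removed all 5 calls where it was library 2 or 3 of WT or library 3 of CM (adjusted p of *Hoxd4* and *Hoxd9* 0.0572 to 0.0667), and left only *Hoxd4* and *Hoxd9* without the first WT library. The log2 change stayed between 2.12 and 2.55 for *Hoxd4* and between 2.23 and 2.89 for *Hoxd9* over all 6.

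**Figure D4:**
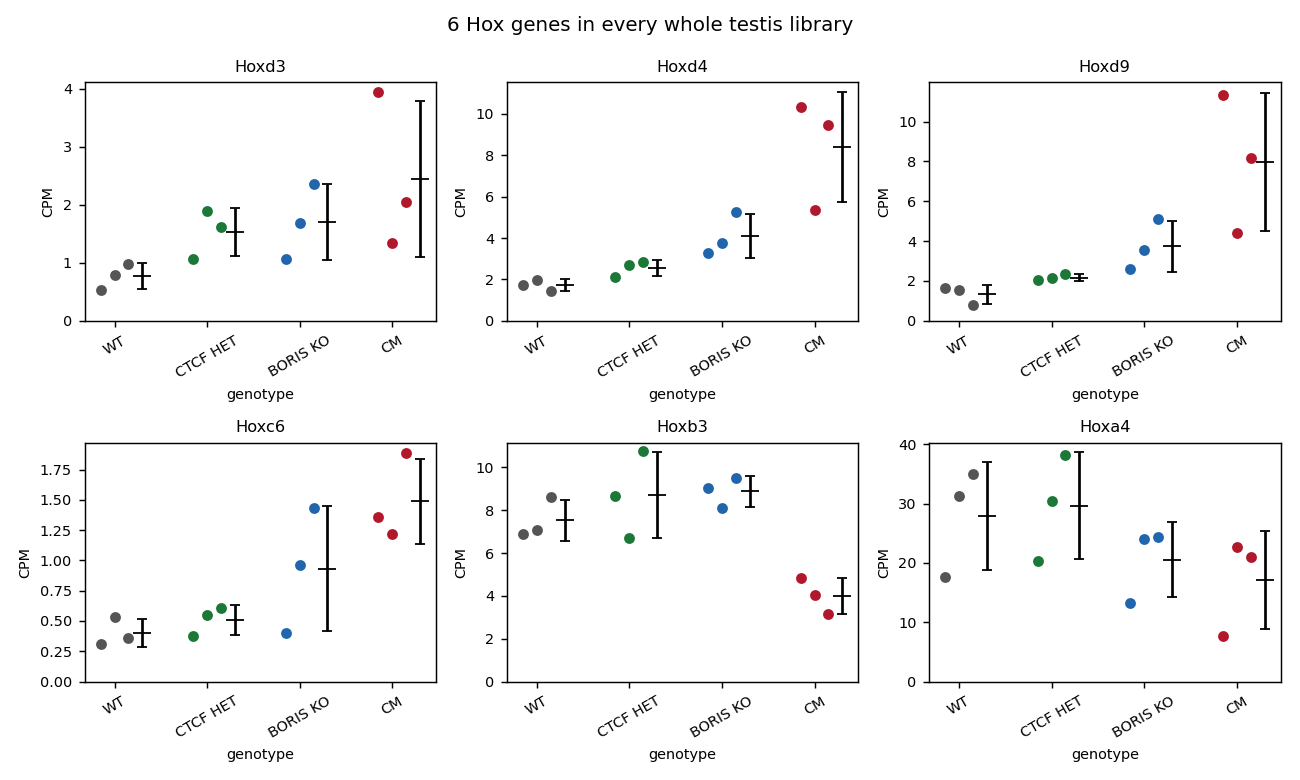
CPM of 6 Hox genes in every whole testis library, by genotype; points are libraries and bars mean ± SD (n = 3). Hoxd4 steps up from WT (1.42 to 1.99) via the single mutants CTCF HET (2.11 to 2.84) and BORIS KO (3.26 to 5.28) up to CM (5.37 to 10.4) with no overlap, while Hoxb3 is lower in CM only.

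In whole testis the *Hoxd4* libraries stood in rising order over the 4 genotypes. By edgeR's quasi-likelihood test neither CTCF HET against WT (log2 0.55 ± 0.29) nor CM against BORIS KO (1.00 ± 0.34, adjusted p = 0.162) was called. Above the WT values of 1.42 to 1.99 CPM, CTCF HET libraries were at 2.11, 2.69 and 2.84 CPM. BORIS KO libraries followed at 3.26, 3.77 and 5.28 CPM, then CM at 5.37 to 10.4, and no neighbouring groups overlapped. *Hoxd4* was the only one of 18 Hox genes in the joint filter with this order, which 0.122% of genes (21 of 17185) showed. This count was not planned, so it is a description of these values and not a test of them. The BORIS KO and CM libraries were separated only by 5.28 against 5.37 CPM. *Hoxd9* had the same order up to BORIS KO (2.03, 2.14 and 2.34 CPM in CTCF HET, then 2.58, 3.53 and 5.12), and its BORIS KO and CM ranges overlapped.

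Neither single mutant passed the test alone in whole testis. CTCF HET had 0 of 12 members called by edgeR (1 at an unadjusted p under 0.05, 0 by DESeq2), beside 0.00621% of genes, and 0 with the replicate block, beside 0.261%. The 1 with an unadjusted p under 0.05 was *Hoxd3*, at 1.07, 1.89 and 1.62 CPM (1.04 ± 0.41, adjusted p = 1 by edgeR's quasi-likelihood test). BORIS KO had 0 of 12 called (3 at an unadjusted p under 0.05, 2 by DESeq2), beside 0.0551% of genes by edgeR, 2.41% by DESeq2 and 6.59% with the replicate block. The block called 1 of the 12. *Hoxd4* was 1.26 ± 0.29 higher on the log2 scale (adjusted p = 0.203 by edgeR, 0.0408 with the replicate block, 0.0333 by DESeq2). *Hoxd9* was 1.47 ± 0.37 higher (adjusted p = 0.203, 0.0534 with the block, 0.0352 by DESeq2).

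Against the single mutants, CM differed from CTCF HET and less surely from BORIS KO. Against CTCF HET 4 of 13 members were called, beside 15.5% of genes (10.6% higher, 4.88% lower): *Hoxd9* (1.87 ± 0.39, adjusted p = 0.0246), *Hoxd4* (1.71 ± 0.35, adjusted p = 0.024) and *Hoxc6* higher, and *Hoxb3* (-1.13 ± 0.33, adjusted p = 0.0465) lower. *Hoxc6* again passed the filter through CM alone (0 of 3 CTCF HET libraries above its limit), at 0.372 to 0.609 CPM in CTCF HET. With the replicate block *Hoxa4* and *Hoxd10* were called as well (adjusted p = 0.00496 and 0.0249, against 0.203 and 0.0622 without it), making 6 of 13 beside 43.0% of all genes under that fit. Without library 2 or 3 of CTCF HET or library 3 of CM none of the 4 was called, and without the first CTCF HET library 1 was. Against BORIS KO 0 of 16 were called by edgeR (4 at an unadjusted p under 0.05, 1 by DESeq2), beside 0.00600% of genes by edgeR, 7.66% by DESeq2 and 7.36% with the block. *Hoxb3* was at 9.04, 8.10 and 9.52 CPM in BORIS KO, all above CM, and was 1.17 ± 0.28 lower in CM on the log2 scale (adjusted p = 0.144 by edgeR, 0.0404 with the block, 0.0122 by DESeq2).

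**Figure D5:**
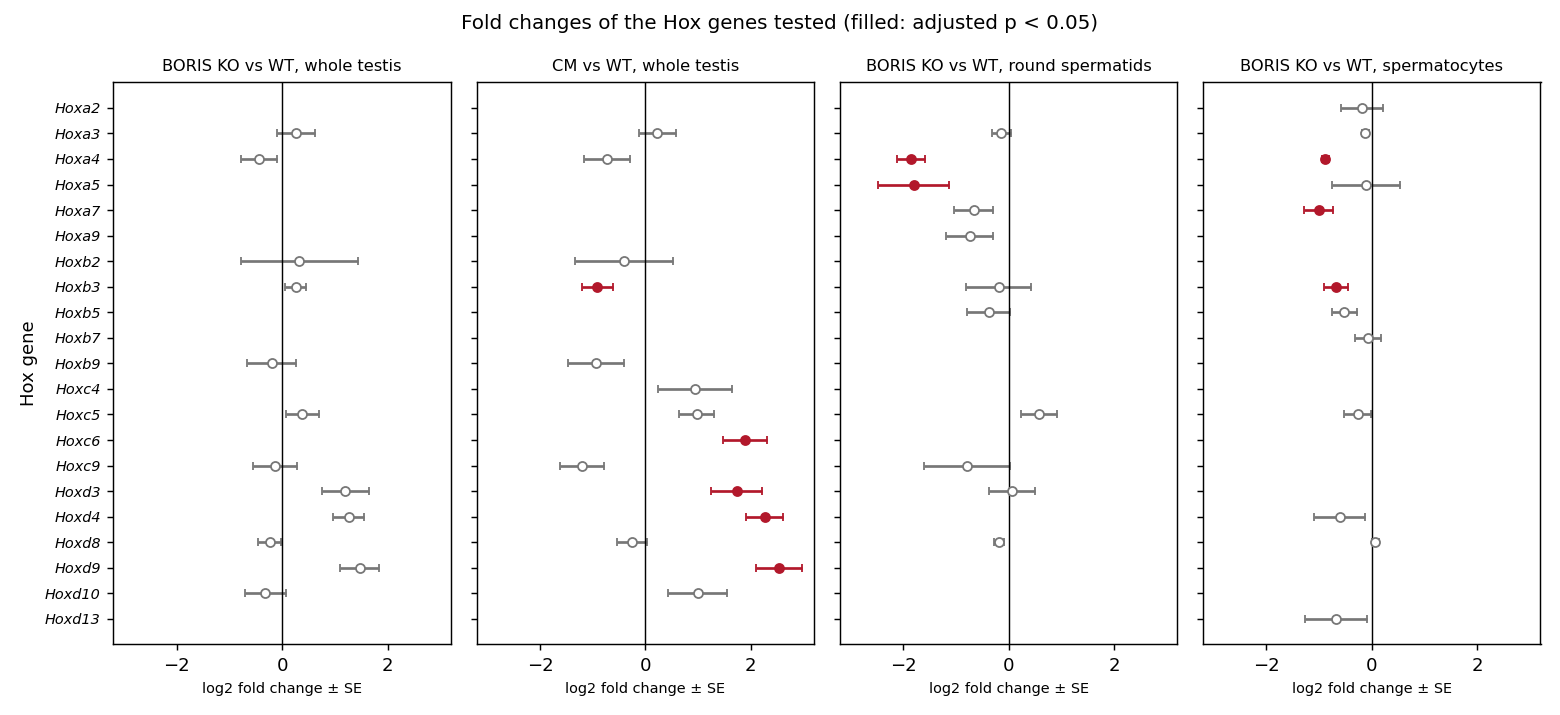
Log2 fold change ± SE of each Hox gene tested (vertical axis) in 4 comparisons with WT; filled red points have adjusted p < 0.05 by edgeR's quasi-likelihood test, and genes without a point did not pass the filter on low counts. In CM whole testis Hoxd3, Hoxd4, Hoxd9 and Hoxc6 lie at 1.73 to 2.54 and Hoxb3 at -0.91, whereas the BORIS KO calls in purified cells are all below 0. Hoxc6 passed that filter through CM alone, so it had to be higher there.

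Of the genes that rose in CM whole testis, *Hoxc6*, *Hoxd9* and *Hoxd4* were at or near 0 in the purified germ cells, and *Hoxd3* was not in round spermatids. *Hoxc6* had at most 1 count in any round spermatid library and at most 2 in any spermatocyte library. *Hoxd9* was at 0 to 0.149 CPM in WT round spermatids and 0.0382 to 0.0632 in WT spermatocytes, and at 0 and at 0 to 0.306 CPM in those labelled CM. *Hoxd4* was at 0.0195 to 0.138 CPM in WT and 0 to 0.214 in CM round spermatids. *Hoxd3* was at 0.274 to 0.791 CPM in WT and 0.534 to 1.17 in CM round spermatids, with groups that overlap, and at 0.0126 and 0.0382 CPM in WT spermatocytes. These levels come from another RNA selection, sequencer and aligner, so they were not tested against whole testis.

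Markers of some somatic cell types rose in the same CM libraries. Of 7 Leydig cell markers (the steroid-making cells between the tubules) 5 were called higher, and their sum was 379.8 to 610.1 CPM in WT and 1874 to 3815 CPM in CM, with BORIS KO (723 to 1505) and CTCF HET (460.4 to 787) between or near them. Of 6 fibroblast and stroma markers 5 were higher, and their sum was 345 to 649.9 CPM in CM against 97.2 to 172 CPM in WT, 149 to 256 in BORIS KO and 112 to 152 in CTCF HET. Of 8 macrophage markers 7 were higher, while the sum of the list overlapped between the groups (487 to 656 CPM in WT, 482 to 608 in CM), and of 8 Sertoli cell markers 3, with a sum of 124 to 204 against 242 to 580.4 CPM.

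The sum of the spermatogonia markers rose as well, while the remaining lists gave lower calls, calls both ways or none. Of 8 spermatogonia markers 2 were higher (55.0 to 68.4 against 119 to 403 CPM), 1 of 8 spermatocyte markers and 4 of 9 spermatid markers were lower (sum of the latter 16410 to 24290 against 4968 to 13150 CPM), and 1 was higher and 1 lower among 7 peritubular myoid markers (343 to 369 against 95.5 to 139 CPM) and among 6 endothelial markers. Of the 9 epididymis markers 2 were tested and none called, with a sum of 3.34 to 3.73 against 2.76 to 9.76 CPM. No defining marker of the Leydig, stroma, macrophage or Sertoli lists was at 0 in any CM or WT whole testis library. In WT round spermatids the Leydig markers summed to 1.16 to 1.37 CPM. The part of these cell types in the rise of *Hoxd3*, *Hoxd4*, *Hoxd9* and *Hoxc6* was not tested.

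The genes that work with or regulate Hox genes were measured alongside. In CM whole testis, where 25.2% of all genes were called (16.4% higher, 8.80% lower), 1 of 8 tested Hox cofactor genes was higher and 1 lower, with a list median of 0.08. Of 27 Polycomb genes 4 were higher and 2 lower, with a list median of 0.13. The smallest adjusted p-values were those of *Cbx6* (log2 2.24), *Bmi1* (-1.23), *Phc3* (1.66) and *Pcgf2* (2.60). Of 14 Trithorax genes *Mll1* (2.30), *Mll2* (1.41) and *Kdm6a* (1.18) were higher and none lower (median 0.53). Of 6 retinoic acid receptor genes *Rarb* (-2.36) and *Rxrg* (-1.53) were lower.

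In BORIS KO the same lists were called both ways, beside 55.8% of all genes in round spermatids and 57.2% in spermatocytes. In round spermatids 3 of 8 cofactors were higher and 3 lower, 6 and 11 of 26 Polycomb genes, 6 and 6 of 14 Trithorax genes, and 3 and 0 of 6 retinoic acid receptor genes. In spermatocytes the counts were 3 and 2 of 8, 7 and 11 of 26, 5 and 7 of 13, and 3 and 0 of 5. In BORIS KO whole testis none of these 4 lists, and none of the marker lists, had a call.

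A gene on the opposite strand of the *Hoxd* cluster was lower in CM whole testis, and its CM libraries lay below WT in all 3 preparations. The lincRNA *1700109F18Rik* is annotated on the minus strand at chr2:74541305-74554187, across *Hoxd8* and into *Hoxd3*, and its 5′ end lies 180 bases from the WT CTCF summit inside *Hoxd3* whose height went from 1836 to 114. In whole testis it was at 19.9, 19.0 and 29.8 CPM in WT and 9.24, 11.5 and 11.3 CPM in CM, with no overlap (log2 -1.11 ± 0.28, adjusted p = 0.024 by edgeR). In spermatocytes it was at 45.1 and 48.7 CPM in WT and 31.8, 24.5 and 28.7 in CM, and in round spermatids at 47.6, 39.9 and 34.7 against 27.6, 13.2 and 22.9. Neither pair of groups overlapped, but edgeR did not call them (-0.70 ± 0.15, adjusted p = 0.0646, and -0.90 ± 0.29, adjusted p = 0.179), whereas DESeq2 did (adjusted p = 0.000735 and 0.0397). Over all genes DESeq2 called 3225 in CM spermatocytes and 1797 in CM round spermatids, where edgeR called 89 and 1.

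In BORIS KO the same gene was at 47.0 to 48.6 CPM in spermatocytes and 38.1 to 46.0 in round spermatids, within 0.03 of WT on the log2 scale, and in whole testis at 17.0 to 17.5 CPM (-0.39 ± 0.22, adjusted p = 0.384). In CTCF HET it was at 36.4 to 45.5, 40.5 to 49.6 and 19.4 to 22.8 CPM, none called. It shares 0 bases of exon with *Hoxd8* and 347 with *Hoxd3*. Whether the counting used strand is not given in the sources used here, so reads of *Hoxd3* and of this gene in the shared part cannot be told apart.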

How the data were processed

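RNA-seq counts and ChIP-seq peak lists of the 4 genotypes were used as deposited. The counts per gene were made by the authors from reads aligned to mm9 with TopHat2 and Bowtie2 (whole testis, rRNA-depleted, Ion Proton) or STAR (purified cells, poly(A), HiSeq2000), and the counting tool, annotation and use of strand are not given in the sources used here. The authors aligned ChIP reads with Bowtie2 and called peaks with MACS; the deposited signal is the summit height from PeakSplitter for CTCF and BORIS, and the deposited score is that of MACS for Pol2 and H3K4me3. Each list combines 2 replicates (1 sample for H3K4me3), so peaks have no replicate error. The spermatocyte CTCF ChIP was not analysed here.

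Counts were filtered with filterByExpr (minimum count 10, minimum total 15), scaled by TMM and tested with edgeR 4.0.16 (quasi-likelihood test, two-sided, R 4.3.3), with Benjamini-Hochberg adjustment over all genes and a threshold of 0.05, fitting only the groups compared. Log2 fold changes are given ± SE, and CPM used library sizes scaled by TMM over all libraries of a preparation. The script was tested on simulated data. Alternatives were DESeq2 1.42.0, DESeq2's size factors, no filter, stricter thresholds, a joint fit of the 4 genotypes, replicate number as a blocking factor, and leaving out each library. Same-numbered libraries from the labels deviated together in whole testis (18 of 18 pairs with r over 0.1, 0.12 to 0.63), and not in round spermatids (4 of 18) or spermatocytes (1 of 15). No replicates were identical or within sampling noise. Whole testis libraries came from 3 independent preparations. For the purified cells, obtained by elutriation and sorting, the sources used here do not state this of each library, so p-values there measure the spread between these libraries, which may be technical.

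Peaks were compared by an overlap of at least 1 base over each cluster with 10 kb on each side, with Wilson 95% intervals that cover counting error only. Gene models were GENCODE vM1 on mm9. The members, the gene lists and the genes named were chosen with earlier results of these data known: members called in any comparison or with a median of at least 10 counts in a group were described singly, with *Ctcf*, *Ctcfl*, the 3 nearest coding genes on each side of a cluster, non-coding genes inside it, and at most 4 list genes called in CM against WT, by smallest adjusted p. The test of differences between round spermatids and spermatocytes was added after seeing the data. The count of genes in rising order over the 4 genotypes was not planned either. The Hox cofactors called in CM whole testis are not named here.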

Additional observations from a re-analysis of the deposited data

How the results depend on the processing

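Of 13 counts and shares, 121 alternatives stayed within the limits set for them and 34 moved. Of 20 single-gene results, 163 alternatives kept direction and call, 79 kept direction but lost the call, and 0 reversed. DESeq2 called 2 members in BORIS KO whole testis, 1 in CTCF HET spermatocytes and 1 for CM against BORIS KO. The replicate block, also run where the numbers did not pair the libraries, called 1 member in each of these 3 comparisons, 7 for CM against WT whole testis and 6 against CTCF HET, and changed no other count by over 1.5 times. In the purified cells it lost *Hoxb3* in BORIS KO spermatocytes and *Hoxa9* between the WT cell types, where it also added *Hoxb3* (adjusted p = 0.0201 against 0.0627) and *Hoxc9* did not pass the filter.

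An adjusted p under 0.001 with a fold over 2 left 0 members for CM whole testis against WT, 0 against CTCF HET, 0 in BORIS KO spermatocytes, 1 in BORIS KO round spermatids and 2 between the WT cell types, and a fold over 2 alone left 1 in BORIS KO spermatocytes. Without the low-count filter 1 was called in BORIS KO round spermatids. All genotypes in one fit gave 1 in BORIS KO round spermatids, 1 in BORIS KO spermatocytes, 2 in CM round spermatids and 1 for CM against BORIS KO.

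Leaving out 1 library gave 0 to 5 calls for CM whole testis against WT and 0 to 5 against CTCF HET, 0 to 2 against BORIS KO, 0 to 2 in CTCF HET and 1 to 2 in BORIS KO round spermatids, 0 to 1 in CTCF HET and 1 to 4 in BORIS KO spermatocytes, and 4 to 9 between the WT cell types. In BORIS KO spermatocytes only *Hoxa4* was called without the first WT library. With 2 WT spermatocyte libraries, leaving 1 out assumes that the other varies like the BORIS KO ones. The causes were not tested. Members with few counts had wide errors, and those that did not pass the low-count filter were not tested in the reported fits.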

Other observations

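Among the nearest 3 listed coding genes on each side of the clusters, which lie up to 910370 bases away, 6 of 20 tested (30.0%) were called in CM whole testis by edgeR's quasi-likelihood test, beside 25.2% of all genes, a share near the background. *Snx10* (log2 2.43 ± 0.37, adjusted p = 0.0151) on the *Hoxa* side and *Atp5g3* (1.39 ± 0.28, adjusted p = 0.0166) on the *Hoxd* side were higher, as were *Nfe2l2* (1.66 ± 0.34, adjusted p = 0.017), which encodes the transcription factor NRF2, and *Smug1* (1.18 ± 0.29, adjusted p = 0.0234), a DNA repair glycosylase. *Tax1bp1* (-0.91 ± 0.27, adjusted p = 0.0398) and *Lnp* (-0.91 ± 0.28, adjusted p = 0.0432) were lower. *Lnp* lies 88875 bases and *Atp5g3* 756984 bases from *Hoxd*, and a link of either to the *Hoxd* genes was not tested.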
